A study of Mus musculus with 4 samples.

Results

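The genes described here are 10 mouse genes whose products carry, restore and end the electrical response of rod photoreceptors to light. They were chosen by symbol, from knowledge of the pathway, but with earlier results of these data known. They are 10 of the 21828 genes compared: the channel genes Cnga1 and Cngb1, the exchanger gene Slc24a1, the guanylate cyclase genes Gucy2e and Gucy2f, the calcium sensor genes Guca1a, Guca1b and Rcvrn, the kinase gene Grk1 and the arrestin gene Sag. Poly(A) RNA was sequenced from retina of slc:ICR mice at postnatal day 12, after dissociated cells had been sorted with an antibody to Cd73, a surface enzyme that rods and their precursors carry. The Cd73-positive fraction (Cd73P) and the Cd73-negative fraction (Cd73N) were each taken from wild-type (WT) littermates and from Ezh2-cKO mice, in which floxed Ezh2 was crossed with DKK3-Cre, a driver active in retinal progenitors from an early embryonic stage. The product of Ezh2 is the enzyme that places the repressive trimethyl mark on lysine 27 of histone H3. There was 1 library for each of the 4 groups, so that no difference given here has a replicate check, no p-value was computed, and how many retinas went into a library is not given in the sources used here.

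In darkness, cyclic GMP holds open a cation channel in the rod outer segment, through which sodium and calcium enter, while an exchanger removes the calcium. Light lowers cyclic GMP and the channel closes. The response ends when the light-activated receptor is phosphorylated by its kinase and capped by arrestin, and when guanylate cyclases, released from inhibition by calcium-sensing proteins as calcium falls, make cyclic GMP again. Cones use a related set of proteins, encoded partly by the same genes and partly by paralogues, and they remain in the Cd73-negative fraction together with bipolar cells, amacrine cells and Müller glia.

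All 40 values of the 10 genes had a valid status in the deposited tables. Levels are FPKM, fragment counts corrected for transcript length and for the size of the library, which allows levels of different genes to be set side by side. Differences between libraries are given as log2 ratios of FPKM + 1, and a gene was counted as higher or lower past 1.5-fold on that scale. Each SE, taken from the deposited bounds, covers counting error within a library and not the spread between animals. Absolute depth is unknown. The depth inferred from the bounds was 1 to 1.16 times that of the Cd73N WT library, and the fewest inferred fragments behind a value of the 10 genes were about 163, for Cnga1 in the Cd73N library labelled Ezh2-cKO.

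The labels were checked first. Nt5e, which encodes Cd73, was at 125 FPKM in Cd73P WT and 123 FPKM in the Cd73P library labelled Ezh2-cKO, against 0.844 and 0.609 FPKM in the corresponding Cd73N libraries, so the sorted fractions differed in the sorting marker in both genotypes. Ezh2 was at 5.38 FPKM in Cd73P WT and 3.45 FPKM in the Cd73P library labelled Ezh2-cKO. In Cd73N it was at 14.1 FPKM in WT and 15.9 FPKM in the library labelled Ezh2-cKO, which goes against that label, although FPKM over a whole gene does not isolate the floxed exons. The mutant libraries are therefore called by their labels throughout. The rod identity of Cd73P was read from 7 rod reference genes outside the set (Gnat1, Gngt1, Pde6a, Pde6b, Pde6g, Nrl and Nr2e3), all of which were higher in Cd73P than in Cd73N in both genotypes, with median log2 ratios of 5.58 in WT and 7.07 in Ezh2-cKO. The 8 cone markers were all lower in Cd73P, and their summed level was 251 and 115 FPKM in Cd73P against 3795 and 5333 FPKM in Cd73N, WT before Ezh2-cKO. In both genotypes 6 of 8 bipolar and 8 of 8 Müller glia markers were lower in Cd73P and 0 higher. Of 6 amacrine markers with a value, 3 were lower in Cd73P and 1 higher in WT, and 5 and 1 in Ezh2-cKO. Their summed level in WT was 29.3 FPKM in Cd73P and 32.5 FPKM in Cd73N, so they separated little there.

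Sequence upstream of the genes was examined as a description, without a test. RefSeq start sites on build GRCm38.p6 were at hand for 8 of the 10 genes (not for Guca1b and Rcvrn), and the 250 bases before each start were searched on both strands for TAATCC, the core recognised by the photoreceptor homeodomain factor CRX, and TGCTGA, the core recognised by the rod leucine zipper factor NRL. The CRX core was found in 6 of 8 promoters, against 6.25% of 32851 promoters, and the NRL core in 1 of 8, against 16.1%. Shown here are the promoters of Cnga1, Cngb1 and Slc24a1, which behaved alike in the Cd73N libraries, of Guca1a, which was distributed in the opposite way to the other genes, and of Sag, the most abundant of them. Capitals mark the searched cores, and GGATTA is the CRX core read on the other strand. In the order given, the sequences are chr5:72642753-72643002, chr8:95306586-95306835, chr9:64951621-64951870 and chr17:47400607-47400856, all minus strand, and chr1:87803430-87803679, plus strand.
Cnga1: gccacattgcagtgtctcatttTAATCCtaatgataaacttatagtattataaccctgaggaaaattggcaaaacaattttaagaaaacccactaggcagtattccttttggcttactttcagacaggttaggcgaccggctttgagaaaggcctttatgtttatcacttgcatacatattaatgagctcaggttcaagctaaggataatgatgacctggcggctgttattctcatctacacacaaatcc
Cngb1: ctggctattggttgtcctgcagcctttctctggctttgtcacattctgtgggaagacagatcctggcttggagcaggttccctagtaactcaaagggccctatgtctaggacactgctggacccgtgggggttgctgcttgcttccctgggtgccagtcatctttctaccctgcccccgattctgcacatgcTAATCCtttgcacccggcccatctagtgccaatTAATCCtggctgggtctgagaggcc
Slc24a1: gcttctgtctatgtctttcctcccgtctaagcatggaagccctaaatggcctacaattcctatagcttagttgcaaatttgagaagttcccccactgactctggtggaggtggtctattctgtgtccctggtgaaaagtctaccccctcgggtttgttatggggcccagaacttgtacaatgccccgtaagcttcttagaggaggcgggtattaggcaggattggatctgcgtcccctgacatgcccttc
Guca1a: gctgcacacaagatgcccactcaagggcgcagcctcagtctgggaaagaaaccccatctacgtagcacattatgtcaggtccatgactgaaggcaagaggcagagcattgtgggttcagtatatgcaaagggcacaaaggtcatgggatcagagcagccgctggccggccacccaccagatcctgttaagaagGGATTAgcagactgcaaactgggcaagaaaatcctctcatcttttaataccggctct
Sag: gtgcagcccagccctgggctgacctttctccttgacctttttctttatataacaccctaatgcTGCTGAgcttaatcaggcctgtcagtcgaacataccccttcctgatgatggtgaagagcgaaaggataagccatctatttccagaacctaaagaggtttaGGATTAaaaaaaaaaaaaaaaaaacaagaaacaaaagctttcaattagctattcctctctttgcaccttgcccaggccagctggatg
In Cngb1 the CRX core began 58 and 25 bases before the start, and in Cnga1 it lay farther out, 228 bases before. Guca1a held it 57 bases and Sag 87 bases before the start, both on the other strand, and Sag alone also held the NRL core, 187 bases before. Gucy2f had 2 cores, 84 and 59 bases before its start, and Gucy2e 1, at 42 bases. The letters were absent from these windows of Slc24a1 and Grk1. A match is a description of the sequence only, and the cores do not overlap each other.

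The 10 genes together held 2.47% of the FPKM sum in Cd73P WT and 3.23% in Cd73P Ezh2-cKO, against 0.298% and 0.379% in the Cd73N libraries. In Cd73P WT, Sag was the second most abundant gene with a value and Rcvrn the sixth, whereas Gucy2f and Guca1a, the lowest of the set, stood at 40.1 and 39.4 FPKM and did not differ beyond 2 SE. The descending order there was Sag, Rcvrn, Cnga1, Cngb1, Grk1, Guca1b, Slc24a1, Gucy2e, Gucy2f and Guca1a. In Cd73N WT the order was led by Guca1a, with Sag and Rcvrn next (398, 389 and 384 FPKM), and the following gene, Grk1, was at 19.2 FPKM. Of these leading genes Sag and Rcvrn lay within 2 SE of each other. FPKM was 0.988 to 1.29 times the centre of its own bounds, depending on the gene, a range wider than the gaps among those 3 genes.

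**Figure D1:**
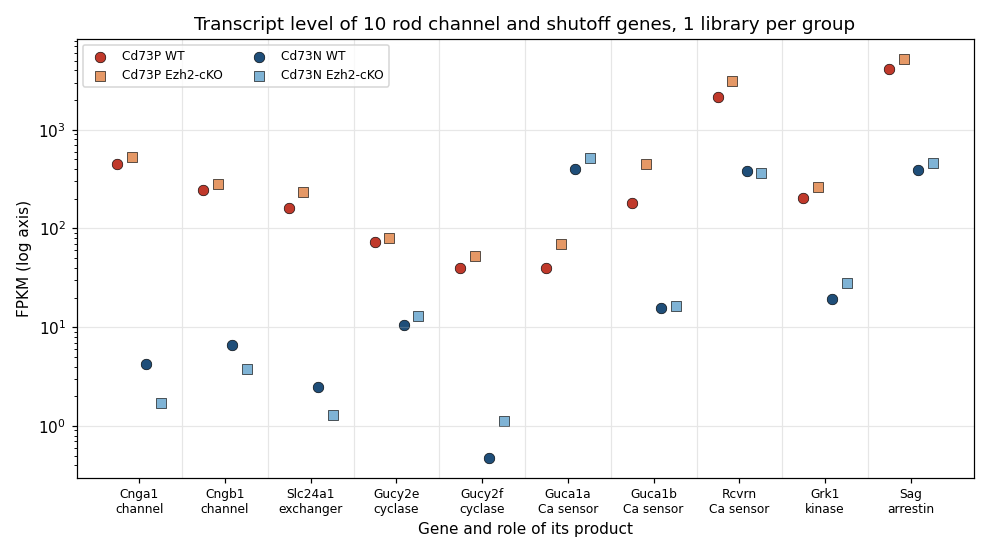
FPKM (log axis) of the 10 genes, ordered by role along the horizontal axis, in the 4 libraries. Each point is 1 library and there are no error bars because there are no replicates. Guca1a is the single gene whose Cd73N points (398 and 520 FPKM) lie above its Cd73P points (39.4 and 70.3 FPKM).

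To ask how far the transcripts were concentrated in the sorted rods, Cd73P was compared with Cd73N within each genotype. Of the 10 genes, 9 were higher and 1 lower in Cd73P in WT, where 9.07% of all genes tested were higher and 27.9% lower (16.6% and 46.4% of genes with 10 FPKM or more in 1 of the libraries). The same counts were obtained in Ezh2-cKO, where 8.4% of all genes were higher and 29.1% lower (17.1% and 42.1% at 10 FPKM or more). After scaling to the FPKM sum the shares of all genes were 15.1% higher and 20.6% lower in WT and 11.2% and 25.4% in Ezh2-cKO. No gene of the set was lost to a filter, and the 4 comparisons given here share libraries. The median log2 ratio of the 10 genes was 3.41 in WT and 4.08 in Ezh2-cKO, against −0.050 and −0.090 over all genes. Over genes with 10 FPKM or more in 1 of the libraries the medians were −0.49 and −0.40. In a sorted bulk sample, fewer cells of a type and less RNA per cell cannot be told apart.

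The channel and exchanger genes were among those with the largest differences. Cnga1 (chr5:72994936-73033991, minus strand, mm9 here and for the other genes) encodes the pore-forming subunit of the rod channel. It was at 450 FPKM in Cd73P WT, 535 FPKM in Cd73P Ezh2-cKO, 4.25 FPKM in Cd73N WT and 1.71 FPKM in Cd73N Ezh2-cKO. Both Cd73P libraries thus lay far above both Cd73N libraries, with log2 ratios of 6.42 (SE 0.069) in WT and 7.63 (SE 0.071) in Ezh2-cKO. The WT ratio was the highest of all 21701 genes tested and the Ezh2-cKO ratio the second highest of 21700. These ranks depend on adding 1, since the plain FPKM ratio in WT was 149 for Nt5e, 106 for Cnga1, 83.9 for Gucy2f, 64.8 for Slc24a1 and 37.1 for Cngb1. Cngb1, the modulatory subunit, was at 244, 285, 6.58 and 3.77 FPKM in the same order of libraries, and its log2 ratios of 5.02 (SE 0.066) and 5.90 (SE 0.071) ranked 13 and 10. Slc24a1 (chr9:64770668-64799414, minus strand), the gene of the sodium, calcium and potassium exchanger that sits beside the channel in the rod plasma membrane, was at 162, 234, 2.49 and 1.28 FPKM. Its log2 ratios were 5.54 (SE 0.053) and 6.68 (SE 0.049).

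The proportion of the channel subunits was compared within each library. Cnga1 was 1.84 times Cngb1 in Cd73P WT and 1.88 times in Cd73P Ezh2-cKO, so their proportion hardly moved between genotypes in the rod fraction. In Cd73N the order was the other way round, with Cngb1 at 1.55 times Cnga1 in WT and 2.21 times in Ezh2-cKO. These proportions depend on how Cngb1 is counted, because it is listed at a further locus that copies only the first part of the gene. With both entries added, Cnga1 was 1.01 times Cngb1 in both Cd73P libraries, and Cngb1 was 2.93 and 4.18 times Cnga1 in Cd73N. Such a sum adds a partial copy to the whole gene and is not a measured level of Cngb1.

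The additional entry spans chr5:143419272-143435263 on build mm9 (plus strand), whereas Cngb1 itself spans chr8:97762943-97830485 (minus strand). Aligning the loci showed that the chromosome 5 stretch is a 15992-base copy of the first 23.7% of the Cngb1 locus, with 1 mismatch in all (99.994% identity). The mismatch lies outside the 13 exons annotated in the copy. Reads from those exons cannot be assigned to one locus, and a read was allowed up to 50 placements. The chromosome 5 entry was listed at 203, 245, 5.88 and 3.36 FPKM, which is 83.1% to 89.4% of the chromosome 8 value in every library. The chromosome 8 value is used as that of Cngb1, and adding the entries moved none of its 4 ratios between libraries beyond counting error. Windows of 36 bases from the longest annotated coding transcript of each gene were also searched for exact matches elsewhere in the mm9 genome. Among the other genes, windows with such a match made up 4.79% of Grk1 and at most 0.0989% of each of the rest. In Cngb1 itself they made up 3.1% (146 of 4715 windows), although the exons annotated in the copy sum to 1509 bases. The search thus found only a small part of a known copy, for a reason that was not examined. The shares of the other genes may therefore be too low.

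The genes of the cyclases that remake cyclic GMP differed more from each other in Cd73N than in Cd73P. Gucy2e (chr11:69031619-69050524, minus strand), encoding the main cyclase of photoreceptors, which cones also use, was at 72.6, 80.8, 10.5 and 13.0 FPKM in Cd73P WT, Cd73P Ezh2-cKO, Cd73N WT and Cd73N Ezh2-cKO. Gucy2f (chrX:138513832-138631479, minus strand), encoding the accompanying cyclase, was at 40.1, 52.5, 0.478 and 1.12 FPKM. In Cd73P, Gucy2e was therefore 1.81 times (WT) and 1.54 times (Ezh2-cKO) as abundant as Gucy2f, and in Cd73N 21.9 and 11.6 times as abundant. The Cd73P over Cd73N log2 ratios were 2.68 (SE 0.030) and 2.55 (SE 0.027) for Gucy2e, and 4.80 (SE 0.035) and 4.66 (SE 0.036) for Gucy2f.

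Guca1a and Guca1b encode the guanylate cyclase activating proteins GCAP1 and GCAP2, which sense calcium and set the activity of the cyclases. They are neighbours on chromosome 17, at chr17:47531507-47537533 (minus strand) and chr17:47522342-47529916 (plus strand) on mm9, with their ends facing each other across 1590 bases and no overlap. Guca1a was at 39.4 FPKM in Cd73P WT and 70.3 FPKM in Cd73P Ezh2-cKO, against 398 and 520 FPKM in Cd73N. It was the 1 gene of the set that was lower in Cd73P, with log2 ratios of −3.31 (SE 0.047) in WT and −2.87 (SE 0.032) in Ezh2-cKO. Guca1b showed the other pattern, with 181, 450, 15.8 and 16.3 FPKM and log2 ratios of 3.44 (SE 0.054) and 4.70 (SE 0.047). Guca1b was 4.59 times as abundant as Guca1a in Cd73P WT and 6.40 times in Cd73P Ezh2-cKO, while in Cd73N Guca1a was 25.3 and 31.9 times as abundant as Guca1b.

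The Guca1a level in Cd73P was set beside genes of cones, which are known to express it. In WT its Cd73P level was 9.88% of its Cd73N level, and the 8 cone markers ranged from 5.22% to 8.18%, with a median of 5.83%. In Ezh2-cKO the corresponding values were 13.5% for Guca1a and 1.76% to 2.34% for the cone markers, with a median of 2.07%. Of the 3 cone counterparts outside that list, Cngb3 and Gnb3 lay above Guca1a in WT (37.6% and 18.2%) and below it in Ezh2-cKO (11.1% and 11.5%), and Slc24a2 was at 7.12% and 2.24%. Guca1a thus exceeded the 8 cone markers in both genotypes but not every cone counterpart in WT. Between WT and Ezh2-cKO its share was larger while the share of each of the 11 cone genes was smaller. What part of the Guca1a signal in Cd73P came from cones in the sorted fraction was not tested.

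Rcvrn, Grk1 and Sag act on the light-activated receptor. Rcvrn (chr11:67508828-67516857, plus strand) encodes recoverin, a calcium sensor that restrains the receptor kinase, and was at 2135, 3137, 384 and 365 FPKM in the same order of libraries. Grk1 (chr8:13405081-13421949, plus strand), the gene of that kinase, was at 202, 263, 19.2 and 27.9 FPKM. Sag (chr1:89700255-89741732, plus strand), the gene of arrestin-1, was at 4081, 5229, 389 and 462 FPKM. All 3 are known to be expressed in cones as well, and Rcvrn in some bipolar cells. Their log2 ratios, Cd73P over Cd73N, were 2.47 (SE 0.014) and 3.10 (SE 0.013) for Rcvrn, 3.32 (SE 0.025) and 3.19 (SE 0.018) for Grk1, and 3.39 (SE 0.011) and 3.50 (SE 0.0094) for Sag. Sag was 20.2 times as abundant as Grk1 in both WT fractions, 19.9 times in Cd73P Ezh2-cKO and 16.6 times in Cd73N Ezh2-cKO.

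The level left in Cd73N varied widely among the genes. Expressed as a percentage of Cd73P FPKM, Cd73N FPKM in WT was 0.945% for Cnga1, 1.19% for Gucy2f, 1.54% for Slc24a1 and 2.69% for Cngb1. It was 8.74% for Guca1b, 9.53% for both Sag and Grk1, 14.4% for Gucy2e and 18.0% for Rcvrn, and 1012% for Guca1a. The 7 rod reference genes spanned 1.21% to 18.1%, with 5 of them at or below 2.01% and Gngt1 and Pde6g at 16.0% and 18.1%, so both the low and the high values were also found among genes outside the set. In Ezh2-cKO the percentage was 0.319% for Cnga1, 0.549% for Slc24a1 and 1.33% for Cngb1, each below its WT value, and the 7 reference genes were likewise each below theirs. Gucy2f (2.13%), Gucy2e (16.0%) and Grk1 (10.6%) were above their WT values. After scaling to the FPKM sum Sag (7.09% in WT and 7.60% in Ezh2-cKO) was too, as was the reference gene Gngt1 by a small margin (11.90% and 11.93%). Guca1b was at 3.63%, Sag at 8.84%, Rcvrn at 11.6% and Guca1a at 740%.

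**Figure D2:**
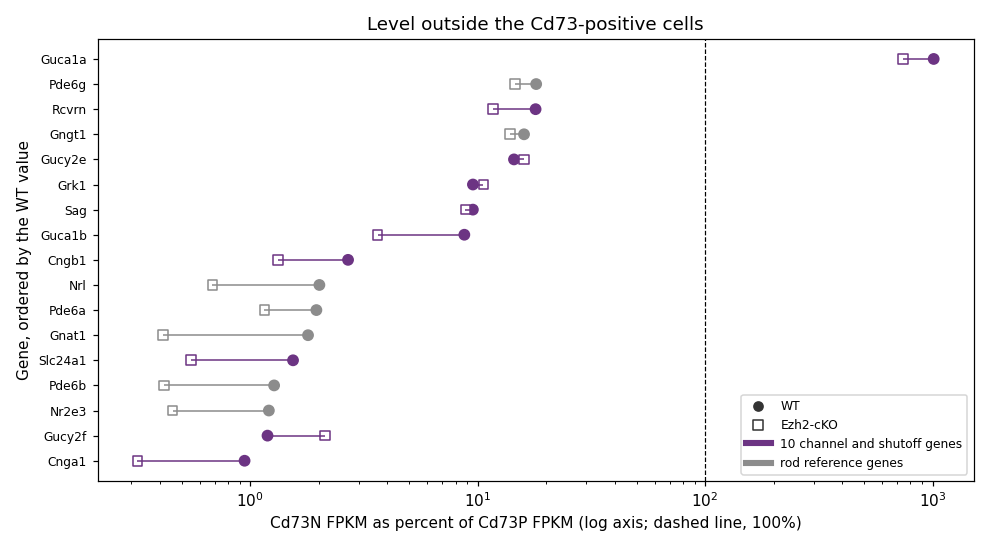
Cd73N FPKM as a percentage of Cd73P FPKM (log axis) for the 10 genes (purple) and 7 rod reference genes (grey), with filled circles for WT and open squares for Ezh2-cKO, 1 library per point. Channel and exchanger genes lie at the low end with most reference genes, Guca1a alone lies beyond 100%, and Gucy2f, Gucy2e and Grk1 are the genes whose Ezh2-cKO value is the higher (joined by Sag and Gngt1 after scaling to the FPKM sum).

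Libraries labelled Ezh2-cKO and WT were compared first in the rod fraction. All 10 genes had a higher FPKM in Cd73P Ezh2-cKO than in Cd73P WT, with log2 ratios of 0.15 to 1.31 and a median of 0.38. The median was 0 over all genes tested and −0.046 over genes at 10 FPKM or more. Past 1.5-fold, 2 genes were higher and 0 lower, where 2.26% of all genes tested were higher and 2.38% lower (3.25% and 2.06% at 10 FPKM or more). Guca1b had the largest ratio: its 450 FPKM in Ezh2-cKO against 181 FPKM in WT gave a log2 ratio of 1.31 (SE 0.018), the 63rd highest of 21703 genes. Guca1a, at 70.3 against 39.4 FPKM, gave 0.82 (SE 0.054). Both genes encode calcium sensors of guanylate cyclase. The count was 3 after median scaling, with Rcvrn at 0.60, and 1 (Guca1b) after scaling to the rod reference genes.

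The remaining 8 genes lay below the threshold in Cd73P. Rcvrn and Slc24a1 came nearest to it, with log2 ratios of 0.56 (SE 0.0064) and 0.53 (SE 0.012) against a threshold of 0.58. Grk1, Gucy2f and Sag had ratios of 0.38, 0.38 and 0.36, the channel genes Cnga1 and Cngb1 0.25 and 0.22, and Gucy2e 0.15. The 7 rod reference genes had a median of 0.42, with 2 higher (Gnat1 at 1.31 and Pde6a at 0.79), so that 6 of the 10 genes would be below 0 if the libraries were scaled to those genes. The cone markers moved the other way in this fraction, with 6 of 8 lower and a median of −0.80, the bipolar markers were lower for 6 of 8 (median −1.80), and the Müller glia markers were higher for 7 of 8 (median 0.99). Of 6 markers each with a value, 1 vascular marker was higher and 1 amacrine and 2 vascular markers were lower, with no ganglion cell or microglial marker past the threshold. The part of these cells in the differences was not tested.

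In Cd73N the genes divided. Past 1.5-fold, 0 were higher and 3 lower in the library labelled Ezh2-cKO, where 7.18% of all genes tested were higher and 1.71% lower (8.06% and 3.63% at 10 FPKM or more). The 3 lower genes were Cnga1 (4.25 to 1.71 FPKM, log2 ratio −0.95, SE 0.098), Cngb1 (6.58 to 3.77 FPKM, −0.67, SE 0.094) and Slc24a1 (2.49 to 1.28 FPKM, −0.61, SE 0.071). They are the genes of the channel and of the exchanger. Cnga1 was the 77th lowest of 21702 ratios. The values are low, and no gene of the set with 10 FPKM or more in a Cd73N library was past the threshold. After scaling to the FPKM sum, 1 of the 3 (Cnga1, −0.86) was still past it and Gucy2f and Grk1 were higher (0.60 and 0.66), with a pseudocount of 5 the 3 genes had ratios of −0.25 to −0.46, and scaling to the rod reference genes gave −0.17 for Cnga1 and ratios above 0 for Cngb1 (0.11) and Slc24a1 (0.17).

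None of the other 7 genes passed the threshold in Cd73N. Gucy2f was at 0.478 and 1.12 FPKM, which is 2.33-fold on the FPKM scale but a log2 ratio of 0.52 (SE 0.046) after adding 1. Grk1 (0.51), Guca1a (0.38), Gucy2e (0.28) and Sag (0.25) lay above 0, while Guca1b (0.047, SE 0.070) lay within counting error of it and Rcvrn (−0.071, SE 0.018) was slightly below. Under scaling to the FPKM sum the Rcvrn ratio was 0.078. The median over the 10 genes was 0.15.

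Gucy2f is the X-linked gene of the set, and the libraries differed in sex-linked transcripts. Xist was at 47.0 and 95.6 FPKM in Cd73P and at 52.2 and 240 FPKM in Cd73N, WT before Ezh2-cKO. The summed level of 4 Y-linked genes (Ddx3y, Eif2s3y, Kdm5d and Uty) was 27.9 and 0.496 FPKM in Cd73P and 26.8 and 0.716 FPKM in Cd73N. Both WT libraries thus held Y-linked transcripts and both libraries labelled Ezh2-cKO held little. With 1 library per group, sex and genotype cannot be told apart.

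Other rod genes in Cd73N were compared with the genes of the set. Of the 7 rod reference genes, 4 were lower in Cd73N Ezh2-cKO (Nrl from 27.7 to 11.0, Nr2e3 from 16.8 to 5.09, Gnat1 from 36.2 to 20.6 and Pde6b from 8.28 to 2.18 FPKM), and 0 were higher, with a median log2 ratio of −0.78. Pde6a, Gngt1 and Pde6g had ratios of 0.028, 0.21 and 0.20. The reference genes ranged from −1.55 to 0.21 and the 10 genes from −0.95 to 0.52. Nt5e itself was at 0.844 and 0.609 FPKM in Cd73N.

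Of 11 cone counterparts, 3 were higher in Cd73N Ezh2-cKO and 0 lower, beside 7.18% and 1.71% of all genes, with a median log2 ratio of 0.33 and a range of −0.32 to 1.23. Arr3, the cone arrestin gene and counterpart of Sag, was at 186 and 438 FPKM, and the cone phosphodiesterase genes Pde6c and Pde6h were at 68.1 and 137 FPKM and at 1237 and 2018 FPKM. Cnga3 and Cngb3, which encode the cone channel, were at 17.1 and 16.2 FPKM and at 13.2 and 16.8 FPKM, and neither was past the threshold. The 8 Müller glia markers were all higher (median 2.11, summed level 996 and 5257 FPKM) and 5 of 8 bipolar markers were lower (median −0.79). Of 6 markers each with a value, 2 amacrine, 1 ganglion cell, 4 microglial and 1 vascular marker were higher and 1 ganglion cell marker was lower. Their part in the differences was not tested.

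**Figure D3:**
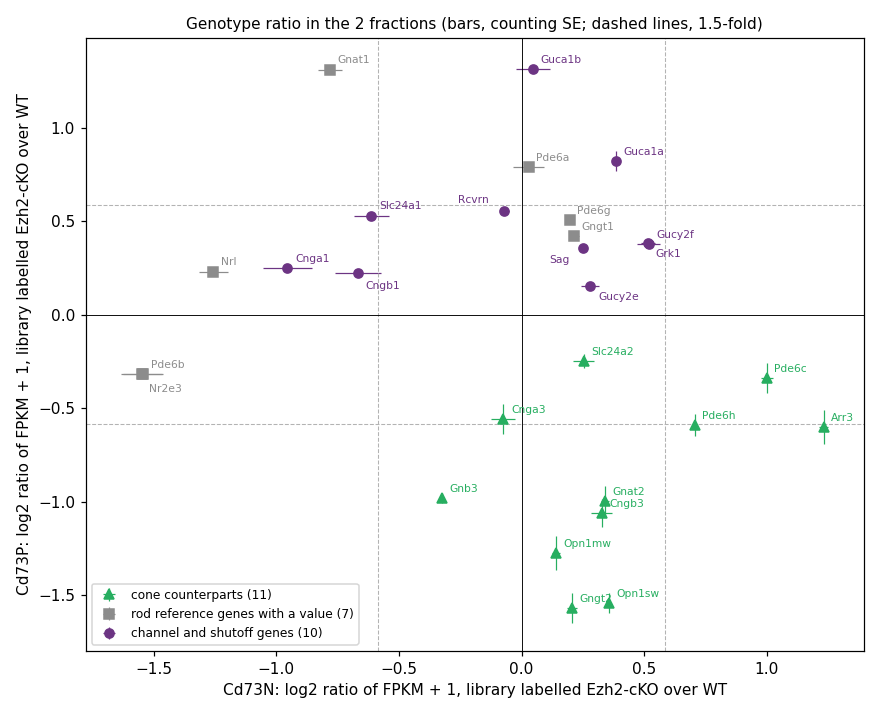
Log2 ratio of FPKM + 1, library labelled Ezh2-cKO over WT, in Cd73N (horizontal axis) and in Cd73P (vertical axis), for the 10 genes (purple circles), 7 rod reference genes (grey squares) and 11 cone counterparts (green triangles). Bars are counting SE from single libraries and dashed lines mark 1.5-fold. All 10 genes lie above 0 on the vertical axis (6 would not after scaling to the rod reference genes). Cnga1, Cngb1 and Slc24a1 lie beyond the left dashed line, as do the reference genes Nrl, Nr2e3, Pde6b and Gnat1.

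Genes that work with the set or are related to its members were counted in the same way. Of 8 such genes (Gnb1, Rgs9, Rgs9bp, Gnb5, Rd3, Pdc, Unc119 and Slc24a4), Gnb1 had a failed status in Cd73P WT. In WT, 5 of the other 7 were higher in Cd73P and 1 lower. Pdc, encoding phosducin, had the largest difference (5501 and 244 FPKM), and Rgs9, Rgs9bp and Gnb5, which form the complex that speeds transducin shutoff, were at 270 and 49.5, 81.3 and 21.2, and 440 and 146 FPKM. Slc24a4, a relative of the rod exchanger gene, was the lower one, at 1.44 and 11.3 FPKM. It was also lower in Cd73P in Ezh2-cKO (0.568 and 12.5 FPKM), so it did not behave as a rod gene in these libraries. Rd3, whose product inhibits the cyclases, was at 52.3 and 39.2 FPKM. By genotype, 0 were higher and 1 of 7 lower in Cd73P (Slc24a4, 1.44 to 0.568 FPKM), and none of 8 passed 1.5-fold in Cd73N. Rgs9 had ratios of 0.42 in Cd73P and 0.51 in Cd73N.

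The mean profile of the 10 genes over the 4 libraries was compared with every other gene at 10 FPKM or more in at least 1 library (7623 genes), by Euclidean distance between log2 values centred on each gene's mean. Among the nearest were Ramp3 (distance 0.14), Rnf207 (0.20), Pex5l (0.22) and Nxnl1 (0.25). Nxnl1, which encodes a rod-derived cone viability factor, was at 106, 147, 7.59 and 9.58 FPKM. Of the genes themselves, Sag lay nearest to the mean (0.30) and Guca1a farthest (6.74). That mean includes Guca1a, whose centred values had the opposite sign in all 4 libraries (−1.95 in Cd73P WT, against 1.57 for the mean). The neighbours named and the place of Sag therefore depend on its inclusion, and distances to a mean without Guca1a are not given. Distances over 4 libraries rest mostly on the fraction, and they are a description.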

How the data were processed

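The deposited tables gave FPKM, lower and upper FPKM bounds and a status for 23021 gene entries in each of 4 libraries. The authors sequenced 36-base single-end reads, aligned them to mm9 with TopHat 2.0.8b, which used its coverage search and kept at most 50 placements of a read, and obtained FPKM from Cufflinks 2.1.1 with RefSeq annotation. Libraries were random-primed without strand, and FPKM was not scaled between libraries. Listed starts were raised by 1.

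The 10 genes and the gene lists were chosen with earlier results of these data known. Symbols on several entries were summed (except Cngb1), 730 small RNA symbols were left out, and a gene without OK status in a pair of libraries was left out of that pair. Ratios used log2(FPKM + 1), which understates ratios of weak genes. The bound width was taken as 4 SE; 24 of the 40 values lay above their own upper bound. Some genes that met the rules for lists and likeness, and one sequence, are not reported here, and the rod reference list was used with 7 of its 8 planned genes. Genes named were all 10, label checks, and rod, cone, paralogue and marker lists. Python 3.11.15, pandas 2.3.3, numpy 2.4.6, matplotlib 3.10.9, pysam 0.24.0 and BLAST 2.17.0 were used. Alternatives covered pseudocount, scaling, threshold, filters and bounds; both Cngb1 entries summed, bound centres and a 10 FPKM filter were added after the data were seen.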

Additional observations from a re-analysis of the deposited data

Results flagged for a closer look

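For 4 of the 10 genes the genotype ratio had opposite signs in the sorted fractions. The ratio in Cd73P minus that in Cd73N, on the log2(FPKM + 1) scale, was 1.20 for Cnga1 (0.25 in Cd73P and −0.95 in Cd73N), 1.14 for Slc24a1 (0.53 and −0.61), 0.89 for Cngb1 (0.22 and −0.67) and 0.63 for Rcvrn (0.56 and −0.071). With 1 library per group none of these differences was tested. The Rcvrn ratio in Cd73N was 0.078 after scaling to the FPKM sum, so its sign was not kept there. The 3 channel and exchanger genes had 1.28 to 6.58 FPKM in Cd73N, and 4 of the 7 rod reference genes were lower in the same comparison.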

How the results depend on the processing

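No paired analysis was possible because there was 1 library per group and no replicate numbers, and no library could be left out. Of 318 single-gene log2 ratios recomputed, 26 had a changed sign, 25 of them under scaling to the rod reference genes. For Cd73P over Cd73N that scaling subtracts the rods' own median ratio and so removes the difference it is set against. This does not hold for the genotype ratios that changed sign, where it sets the genes beside other rod genes of the same fraction. Under that scaling the genes higher and lower in Cd73P were 1 and 7 in WT (median −2.17) and 0 and 8 in Ezh2-cKO (median −2.99). The reversed ratios in WT were −0.57 for Cngb1, −0.043 for Slc24a1, −2.90 for Gucy2e, −0.78 for Gucy2f, −2.15 for Guca1b, −2.26 for Grk1, −2.20 for Sag and −3.11 for Rcvrn. In Ezh2-cKO they were −1.17 for Cngb1, −0.39 for Slc24a1, −4.52 for Gucy2e, −2.41 for Gucy2f, −2.37 for Guca1b, −3.88 for Grk1, −3.57 for Sag and −3.97 for Rcvrn. By genotype it left 1 gene higher in Cd73P (median −0.038) and gave 7 higher and 0 lower in Cd73N (median 0.93), with Cngb1 at 0.11 and Slc24a1 at 0.17, while Cnga1 was at −0.17. The medians of Cd73P over Cd73N were 3.13 (WT) and 3.36 (Ezh2-cKO) with a pseudocount of 5, 3.75 and 4.35 with median scaling, and 3.83 and 4.29 with scaling to the FPKM sum; median scaling shifted all ratios by 0.33 and 0.26, and sum scaling by 0.40 and 0.20. As means, the Ezh2-cKO value was 3.90 and the genotype value in Cd73P 0.50. Median scaling gave 3 genes higher in Cd73P Ezh2-cKO. At a 2-fold threshold 1 gene was higher in Cd73P Ezh2-cKO and 0 were lower in Cd73N. The 3 genes lower in Cd73N became 0 with a pseudocount of 5 or a 10 FPKM filter, both of which weaken low genes by construction, and 1 with scaling to the FPKM sum, where 2 genes were higher; a pseudocount of 0.1 gave 1 higher. Across the settings the share of all genes higher ran from 4.95% to 18.8% for Cd73P over Cd73N in WT, 4.82% to 17.8% in Ezh2-cKO, 0.746% to 6.59% for genotype in Cd73P and 2.86% to 15.0% in Cd73N, and the share lower from 17.7% to 46.4%, 18.8% to 45.6%, 0.604% to 7.89% and 0.327% to 3.72%. Every percentage of Cd73P was smaller after sum scaling, and the genotype order turned for Sag and Gngt1. The fewest inferred fragments in Cd73N were those of Cnga1, Cngb1, Slc24a1 and Gucy2f (163 to 515).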

Other observations

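Paralogues of the 10 genes that serve other tissues or general signalling were mostly lower in the rod fraction. Of 27 measured in WT, 2 were higher in Cd73P (Hpcal1 at 19.2 against 7.82 FPKM and Slc24a5 at 6.24 against 2.59 FPKM) and 18 were lower. Of all genes tested, 9.07% were higher and 27.9% lower (16.6% and 46.4% at 10 FPKM or more). In Cd73P WT 14 of the 27 had 1 FPKM or more, and those near 0 in both libraries cannot pass the threshold. The exchanger gene Slc24a3 was at 3.20 FPKM in Cd73P WT and 109 FPKM in Cd73N WT, and Gucy1a3, a subunit of the soluble guanylate cyclase, at 3.22 and 110 FPKM. The exchanger genes thus differed in direction between the WT fractions. Slc24a1, at 162 FPKM in Cd73P WT and 2.49 FPKM in Cd73N WT, was higher in Cd73P, as was Slc24a5. Slc24a3, Slc24a2 (0.348 and 4.89 FPKM) and Slc24a4 (1.44 and 11.3 FPKM) were lower in Cd73P. By genotype, 0 paralogues were higher and 4 of 27 lower in Cd73P (Gucy1a3 at 3.22 and 1.41 FPKM among them), beside 2.26% and 2.38% of all genes. In Cd73N 1 of 26 was higher (Hpcal1, 7.82 and 15.0 FPKM) and 1 lower, beside 7.18% and 1.71% of all genes. Gucy1b3 was left out there for a failed status. Gucy2d was listed at 0 in all 4 libraries.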
